A study of Mus musculus with 4 samples.

Results

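Cells that met a rule on neuronal, Mef2c and Maf transcripts were 820 of the 19032 cells analysed from the medial ganglionic eminence (MGE) of mouse embryos at E14.5 (embryonic day). The cells were chosen by their own counts of unique molecular identifiers (UMIs, which count captured transcripts). A barcode was a member if it had at least 3000 UMIs, at most 10% mitochondrial UMIs, at least 2 UMIs of Mef2c and 1 of Maf, at most 2 of Sst, none of Neurod2 or Neurod6, and at least 2 in sum of the neuronal genes Stmn2, Gap43 and Mapt. The members numbered 246 and 306 in the 2 libraries of St18(-/-) embryos (null replicates 1 and 2) and 165 and 103 in the 2 libraries of wild-type embryos (WT replicates 1 and 2). They are called Mef2c+ Maf+ cells here. The 12822 barcodes that met every other limit of the rule, but not the Mef2c and Maf limits together, are called the other gated cells, and members and other gated cells together are the 13642 gated cells.

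All embryos came from crosses of St18 heterozygous parents of mixed C57/BL6 and ICR strain, and MGE tissue was pooled by genotype, so each library is a pool of embryos. The null allele lacks the exons between the loxP sites of a conditional allele that was recombined in the germline, in every cell of the animal rather than in the MGE alone, and its shortened transcript can still be counted. St18 was therefore no check of the labels, and its CPM (UMIs of a gene per 1000000 UMIs of the same class in the same library) in the Mef2c+ Maf+ cells was 19.4 and 44.3 in the null libraries against 22.2 in both WT libraries. The count of embryos per pool and their sex were not given in the sources used here. Nothing in the labels says how the pools were drawn, so p-values measure only the spread between these 4 libraries.

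Mef2c encodes a MADS-box transcription factor and Maf a basic leucine zipper factor of the large MAF group. In the embryonic MGE, postmitotic cells that express Lhx6 divide into interneurons that migrate tangentially to the cortex and neurons that settle in the basal forebrain. Maf is known for its part in the fate and migration of MGE-derived cortical interneurons, and Mef2c is known as an early mark of those that become parvalbumin interneurons. The cells measured here were still in the dissected MGE, so neither their destination nor their adult class was observed.

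The null libraries held 92984713 and 89094919 UMIs in all and the WT libraries 72640295 and 70991150. Null replicate 2 stood apart in depth, with a median of 9453 UMIs per Mef2c+ Maf+ cell against 6449.5 in null replicate 1 and 5992 and 5680 in the WT libraries. The pools also differed in sex. Xist, the noncoding RNA of the inactive X chromosome, stood at 518 and 1318 CPM in the null Mef2c+ Maf+ cells and at 0 in both WT libraries. Over all pairs of libraries 41 barcode sequences were shared among cells, and none was a member in both libraries of a pair.

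A few members carried the genes of cells that are not neurons. At least 10 UMIs of a list of microglial, endothelial or erythroid genes were found in 4, 4, 4 and 10 members of null replicates 1 and 2 and WT replicates 1 and 2. These 22 of 820 barcodes held 4927 of the 4990 UMIs of the microglial list, which included C1qa, C1qb, C1qc and Cx3cr1, and 652 of the 699 UMIs of the endothelial list. In WT replicate 2 they supplied 19.98% of all UMIs of the members, against 1.87%, 3.58% and 4.10% in null replicate 1, null replicate 2 and WT replicate 1. Epha5, one of the genes that came with the cell class, stood at 118, 104, 65.0 and 32.8 CPM in the 22 barcodes and at 1933, 1814, 2494 and 2040 CPM in the remaining members. The summed microglial genes reached 221 and 321 CPM in the null members and 891 and 2871.5 CPM in the WT members, against 8.26 to 23.8 CPM in the other gated cells. All 10 genes of the microglial list were above 0 in the sums. Values are therefore given with all members and with barcodes of these 3 kinds set aside from members and from the cells compared, a setting added after the data were seen.

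**Figure D1:**
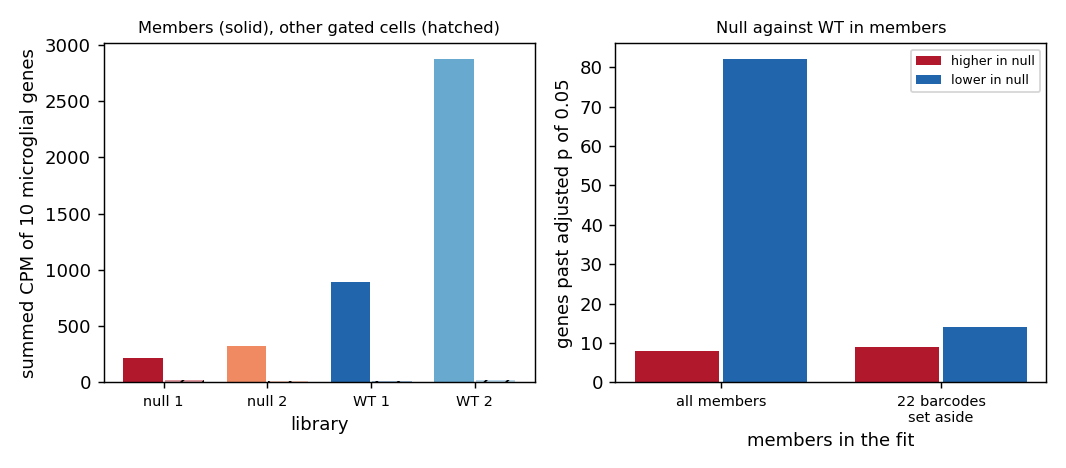
Left, summed CPM of 10 microglial genes in the Mef2c+ Maf+ cells (solid bars) and the other gated cells (hatched bars) of each library. Right, number of genes past an adjusted p of 0.05 between null and WT members, with all members and with 22 barcodes set aside. The microglial sum is 2871.5 CPM in WT replicate 2, and the genes lower in null fall from 82 to 14 in the right panel.

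The gate itself sat low on the range of Mef2c counts. The median Mef2c+ Maf+ cell held 3 Mef2c UMIs in each library, and 41.9%, 35.9%, 41.2% and 40.8% of members in null replicates 1 and 2 and WT replicates 1 and 2 held exactly 2. The highest Mef2c count in a cell was 26, in null replicate 2. Maf had a median of 4 UMIs in 3 libraries and 7 in null replicate 2. Sst was at 0 UMIs in 91.9% to 98.1% of members.

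Cells just outside the gate held more Epha5 than the members with the lowest counts, in each library. The members with exactly 2 Mef2c UMIs and 1 Maf UMI, 11 to 17 cells per library, held 1068 and 741 CPM of Epha5 in the null libraries and 1094 and 530 in the WT libraries. Gated cells just outside, with 1 Mef2c UMI and at least 1 Maf UMI, held 1232 and 896 CPM in null libraries and 1419 and 1045 CPM in WT libraries. Members with more than the lowest counts held 1948, 1801, 2549 and 1767 CPM. Gated cells with at least 2 Mef2c UMIs but no Maf stood lower, at 342 to 588 CPM.

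Epha5, Dlgap1 and Gria1 were named with the cell class from a clustering of these same cells, so their levels describe the label and carry no test. Epha5 (ENSMUSG00000029245, chromosome 5, 84054761 to 84417382 on the minus strand of GRCm38) encodes an ephrin-A receptor. After thinning each cell to 3000 UMIs, Epha5 was detected in 89.0% and 85.6% of null and 90.9% and 74.8% of WT members. The same shares were 32.9% to 38.1% in the other gated cells and 8.11% to 16.4% in radial glia barcodes, a class with little Epha5 that gauges free RNA. Radial glia barcodes held at least 3 Hes5 UMIs and none of Stmn2, Gap43 or Mapt. That limit leaves out barcodes that took up free RNA of these neuronal genes, so shares in this class may understate the background. Without thinning the shares were 94.3%, 93.8%, 93.3% and 83.5% in the members and 16.2% to 43.3% in the radial glia barcodes.

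Dlgap1 (ENSMUSG00000003279, chromosome 17, 69969073 to 70821413, plus strand), a scaffold of the postsynaptic density, stood at 170 and 179 CPM in null members and 157 and 185 CPM in WT members, against 33.3 to 43.9 CPM in the other gated cells. Gria1 (ENSMUSG00000020524, chromosome 11, 57011387 to 57330244, plus strand), an AMPA receptor subunit, stood at 56.1, 51.4, 65.7 and 73.6 CPM against 9.45 to 13.7 CPM. Both genes were higher in the members of every library, and Gria1 was thin: thinned to 3000 UMIs, only 7.77% to 17.6% of members had a Gria1 UMI, against 2.54% to 3.58% of the other gated cells. Lhx6, the LIM factor of postmitotic MGE neurons, was detected in 46.6% to 70.3% of thinned members against 3.6% to 7.46% of radial glia barcodes. Gad2, a GABA-synthesizing enzyme, was detected in 61.2% to 68.3% of thinned members against 2.61% to 6.31% of radial glia barcodes. The markers were thus present, while Pvalb, the calcium buffer of the adult class, had a UMI in 0 of 820 members, which allows a share of up to 0.366% of such cells with a UMI and does not limit the share that expressed it at a lower level.

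Promoters of Epha5 and Cxcr4 are shown because these receptors had the 2 largest log2 fold changes of the migration list in the members. The RefSeq windows of 300 bases run from 250 before to 50 after the start, on GRCm38.p6. Among the 10 genes that led the members after setting barcodes aside, 5 were in the promoter table, with 6 windows. The MEF2 motif was found in 0 of the 6 windows and in 1.86% of 32851 windows of all genes. TGCTGA, the core of a MAF response element, was in 1 of 6 against 19.5%, the E-box CAGCTG in 1 of 6 against 16.3%, and TAATTA, the core read by homeodomain factors, in 1 of 6 against 5.29%. Both strands were searched, and the capitals mark the one TAATTA. The Epha5 window lies on the minus strand at chr5:84417333-84417632 and the Cxcr4 window, with none of these motifs, on the minus strand at chr1:128592250-128592549.
Epha5: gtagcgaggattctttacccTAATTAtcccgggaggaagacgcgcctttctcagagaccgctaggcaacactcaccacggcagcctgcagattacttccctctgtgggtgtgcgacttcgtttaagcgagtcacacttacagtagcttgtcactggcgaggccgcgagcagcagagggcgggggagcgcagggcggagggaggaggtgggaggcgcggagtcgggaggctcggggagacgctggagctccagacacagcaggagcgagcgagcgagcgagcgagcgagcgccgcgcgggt
Cxcr4: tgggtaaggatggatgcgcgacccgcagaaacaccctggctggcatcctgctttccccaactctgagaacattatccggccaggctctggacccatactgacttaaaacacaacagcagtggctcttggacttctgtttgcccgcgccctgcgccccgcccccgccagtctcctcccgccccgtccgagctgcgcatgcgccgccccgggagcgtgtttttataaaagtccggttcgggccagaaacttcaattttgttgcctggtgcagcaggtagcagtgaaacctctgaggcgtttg

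The first comparison asked how Mef2c+ Maf+ cells differed in the rest of their transcriptome from the other gated cells of the same library. Since Mef2c and Maf themselves chose the cells, it is a description. The genes of the rule and the mitochondrial genes were taken out, and log2 fold changes (with standard errors, SE) are from the edgeR model with library as a block. With all members, 1525 of 13393 genes were higher (11.4%) and 1739 lower (13%) at an adjusted p of 0.05. With the barcodes set aside, 1718 of 13112 were higher (13.1%) and 2247 lower (17.1%).

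With all members, the 10 genes with the largest positive log2 fold change were of microglial character, among them Fcrls (7.18), Trem2 (6.62), C1qb (6.53), C1qa and C1qc. All 10 genes of the microglial list were higher, with a median log2 fold change of 6.33, as were 4 of 7 endothelial genes, while 6 of 6 erythroid genes tested were lower. The erythroid difference came with hemoglobin UMIs of 7 to 15 barcodes per library in the other gated cells. With the barcodes set aside, 1 microglial gene and 2 endothelial genes had enough counts to be tested, and neither they nor the 6 erythroid genes passed.

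The genes that then led the Mef2c+ Maf+ cells were chosen after their values were seen. Cxcr4, the receptor for the chemokine Cxcl12 that guides interneurons along their streams, stood at 26.0 and 23.5 CPM in null members and 40.7 and 32.7 CPM in WT members against 3.31 to 5.32 CPM in the other gated cells (log2 fold change 2.82, SE 0.17). For Epha5 the log2 fold change was 2.61 (SE 0.05). Every library showed both differences in its summed counts. Cxcr4 was thin, with a UMI in 167 of all 820 members. Thbs1, which encodes the matrix protein thrombospondin 1, stood at 16.6, 27.6, 15.7 and 31.1 CPM against 1.96 to 3.93 CPM (log2 fold change 2.72). Efcab6, an EF-hand protein, stood at 104, 77.2, 106 and 72.0 CPM against 11.3 to 16.7 CPM (2.63). The adhesion molecule Cntnap4 (2.48), the carbonic anhydrase Car2 (2.42), Gria1 (2.32), Dlgap1 (2.20), the helix-loop-helix inhibitor Id3 (2.16) and the RNase P and MRP subunit Rpp25 (2.15) followed on the same log2 scale.

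**Figure D2:**
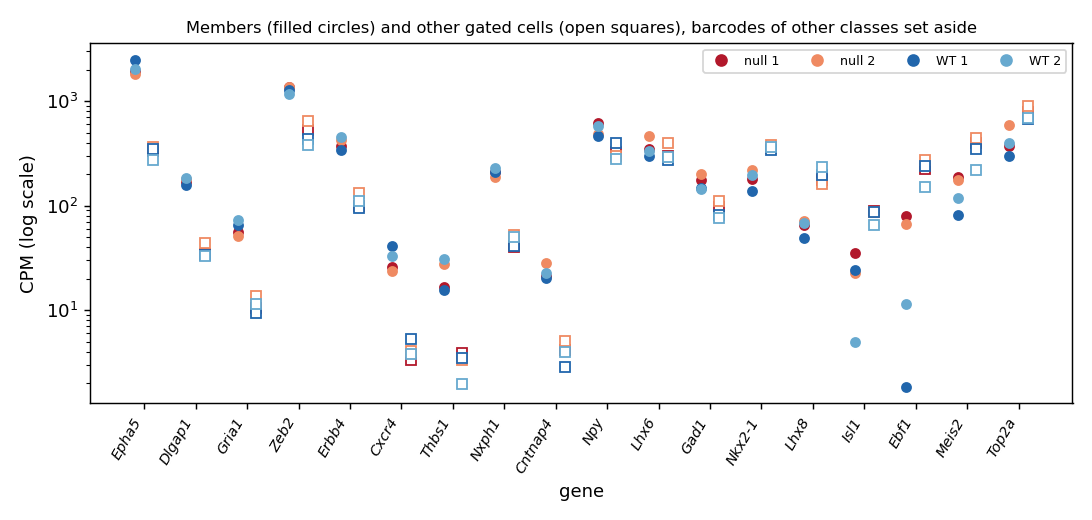
CPM on a log scale in each library for the Mef2c+ Maf+ cells (filled circles) and the other gated cells (open squares), with barcodes of other classes set aside. Epha5 lies between 1814 and 2494 CPM in the members and below 361 CPM in the other gated cells, while Lhx8, Isl1 and Top2a lie lower in the members.

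Transcription factors of migrating interneurons were mostly higher in the Mef2c+ Maf+ cells. Of 15 such factors 8 were higher and 1 lower with all members, with a list median log2 fold change of 0.32 against -0.01 for all genes tested, and 10 were higher and 1 lower with the barcodes set aside. The shares over all genes tested were 11.4% higher and 13% lower with all members, and 13.1% and 17.1% with the barcodes set aside. Zeb2, a zinc finger factor that directs MGE cells toward the cortical interneuron fate, stood at 1379, 1352, 1272 and 1169 CPM in the members against 383 to 646 CPM (log2 fold change 1.36, SE 0.05). The members lay above the other gated cells in all 4 libraries. Sox6 (0.53), Satb1 (0.56) and Npas3 (0.51) were higher by smaller log2 fold changes, and Dlx1 was lower (-0.31). Lhx6 was nearly level, at 348, 461, 301 and 337 CPM against 274 to 396 CPM (0.19, SE 0.05).

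Mef2a, a relative of Mef2c, was higher in the Mef2c+ Maf+ cells, with a log2 fold change of 0.48 with the barcodes set aside. Hdac5 (0.65) and Hdac4 (0.41), class IIa histone deacetylases that bind MEF2 factors, were higher as well.

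Factors of neurons that stay in the subpallium were lower. Of 9 such factors 7 were lower with all members, with a list median of -1.04, and with the barcodes set aside 7 were lower and 1 higher. Over all genes tested 13% were lower with all members and 17.1% with the barcodes set aside. Lhx8, which specifies cholinergic neurons, stood at 65.5 and 71.2 CPM in null libraries and 49.1 and 68.7 CPM in WT members against 161 to 236 CPM (log2 fold change -1.47, SE 0.08). Isl1 stood at 34.99, 22.4, 24.1 and 4.91 CPM against 65.0 to 88.0 CPM (-1.80, SE 0.11). Both genes were lower in the summed counts of the members in every library. Nkx2-1, the MGE determinant that migrating interneurons switch off, was lower but present, at 181, 219, 137 and 198 CPM against 341 to 381 CPM (-0.97, SE 0.06). Thinned to 3000 UMIs, 26.1% to 33.3% of members had a Nkx2-1 UMI, against 49.3% to 53.2% of the other gated cells. Radial glia, which express Nkx2-1, gave 44.4% to 63.1%, so this share has no background class. Genes of the lateral ganglionic eminence (LGE) were lower in 8 of 9 tested with all members (median -1.54), led by Ebf1 (log2 fold change -2.17 with the barcodes set aside).

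Receptors of migration went in both directions. Of 20 genes of neuronal migration 10 were higher and 5 lower in the Mef2c+ Maf+ cells, both with all members and with the barcodes set aside. The list includes Epha5, which came with the cell class. Among all genes tested, 11.4% were higher and 13% lower with all members, and 13.1% and 17.1% with the barcodes set aside. Erbb4, the neuregulin receptor of migrating interneurons, stood at 370, 420, 340 and 450 CPM against 95.4 to 131 CPM (log2 fold change 1.82, SE 0.05), and Ackr3, the scavenger receptor for Cxcl12, at 162, 151, 186 and 137 CPM against 55.9 to 68.6 CPM (1.34, SE 0.06). Dcx, a microtubule protein of migrating neurons, stood at 1020, 1202, 1060 and 980 CPM against 524 to 701 CPM (0.85). Ephb1 (-1.24), the netrin receptor Dcc (-1.01) and Nrp1 (-0.87), a receptor for class 3 semaphorins, were lower.

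Most synaptic adhesion genes were higher than in the other gated cells as well. Of 13 synaptic adhesion genes 9 were higher and 2 lower with all members (median 0.58), and 10 higher and 2 lower with the barcodes set aside. Nxph1, a secreted ligand of alpha-neurexins, stood at 208, 187, 208 and 229 CPM against 40.1 to 52.1 CPM (log2 fold change 2.14, SE 0.07). Its relative Nxph2 was scarce, at 8.77 to 11.1 CPM in the members and 0.226 to 0.641 CPM in the other gated cells (4.56, SE 0.38). Of 20 glutamate receptor and scaffold genes 6 were higher and 2 lower with all members, and 8 higher and 2 lower with the barcodes set aside. Gria1 and Dlgap1, which came with the cell class, are in this list. Gria4, another AMPA receptor subunit, stood at 113, 123, 125 and 126 CPM against 26.8 to 44.2 CPM (1.73, SE 0.08). Of 19 GABA genes 5 were higher and none lower with all members, and 7 with the barcodes set aside. They included Gad1 (0.85) and the vesicular transporter Slc32a1 (0.51). Of 24 tested ion channel genes 5 were higher and 4 lower with all members, and 10 higher and 4 lower with the barcodes set aside. Beside each of these lists stand the shares over all genes tested. They were 11.4% higher and 13% lower with all members, and 13.1% and 17.1% with the barcodes set aside. Among 3 tested genes of parvalbumin interneurons, Cplx1 (0.61) and Kcnc1 (0.50) were higher. The list was not particular to the members. With no barcode set aside, its 6 genes summed to 65.6, 63.9, 61.3 and 55.0 CPM in the members. The sums were 60.9, 82.7, 70.9 and 51.8 CPM in the Sst cells defined below. In gated cells with at least 2 Mef2c UMIs but no Maf they were 80.4, 228, 92.4 and 55.0 CPM.

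Progenitor and cell cycle genes were lower. Of 12 such genes 10 were lower and none higher with all members (median -0.79), and 11 were lower with the barcodes set aside. Over all genes tested the lower share was 13% with all members and 17.1% with the barcodes set aside. Top2a, a topoisomerase of dividing cells, stood at 375, 596, 301 and 399 CPM against 675 to 903 CPM (log2 fold change -0.89, SE 0.06). Without thinning, 52.4% and 62.1% of null and 34.5% and 42.7% of WT members had a Mki67 or Top2a UMI. The share was 51.7% to 66.5% of the other gated cells and 80.0% to 88.1% of radial glia barcodes. Radial glia divide, so this share has no background class. At least 5 such UMIs were found in 13.0% and 21.2% of null and 5.45% and 14.6% of WT members, against 21.6% to 31.4% of the other gated cells. The neuropeptide gene Npy was abundant in the members, at 611, 486, 468 and 581 CPM against 282 to 397 CPM (0.70, SE 0.06). Thinned to 3000 UMIs, 43.6% to 59.4% of members had a Npy UMI, against 26.8% to 34.3% of the other gated cells and 7.21% to 10.4% of radial glia barcodes.

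The 3550 gated cells with Maf but no Mef2c shared every limit of the rule except that on Mef2c, and again the rule itself set the contrast. With all members, 598 of 11405 genes were higher (5.24%) and 616 lower (5.4%). With the barcodes set aside, 814 of 11253 were higher (7.23%) and 887 lower (7.88%). Gria1 led, at 7.99 to 12.7 CPM in the Maf cells without Mef2c against 51.4 to 73.6 CPM in the members (log2 fold change 2.53, SE 0.12), followed by Cxcr4 (2.32), Thbs1 (2.24), Cntnap4 (2.17) and Id3 (2.06). Epha5 stood at 559 to 675 CPM in the Maf cells without Mef2c (1.75, SE 0.04). Of 19 tested glutamate receptor and scaffold genes 9 were higher and none lower in the members, with all members and with the barcodes set aside. The list includes Gria1 and Dlgap1, which came with the cell class and carry no test. Synaptic adhesion genes were higher in 7 of 12 tested with all members and in 10 with the barcodes set aside. Lhx6 was lower in the Mef2c+ Maf+ cells (-0.24, SE 0.04), as was Npy (-0.26, SE 0.07), and Lhx8 was the lowest of the genes chosen (-1.40, SE 0.07), at 163 to 180 CPM in the Maf cells without Mef2c.

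The 349 Sst cells met the limits on depth, mitochondrial share and neuronal genes and held at least 3 Sst UMIs, with no limit on Mef2c or Maf, and they stand for the other large class of MGE interneurons. With all members, 393 of 8435 genes were higher in the Mef2c+ Maf+ cells (4.66%) and 570 lower (6.76%). With the barcodes set aside, 470 of 8281 were higher (5.68%) and 661 lower (7.98%). Zeb2 was higher than in the Sst cells, where it stood at 611, 977, 439 and 319 CPM (log2 fold change 1.15, SE 0.11), and Epha5 was higher too (1.10, SE 0.10). Car2 (1.82), the muscle giant-protein gene Neb (1.73), Efcab6 (1.63), the Wnt carrier Wls (1.52) and the growth factor receptor Fgfr2 (1.51) led the genes that were higher. Satb1, which promotes the Sst class, stood at 239 to 303 CPM in the Sst cells against 133 to 178 CPM in the members (-0.86, SE 0.08), and Sox6 (-0.72) and Lhx6 (-0.47) were also lower in the members.

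Genes that were far lower than in the Sst cells included the kinase gene Prkcq (-3.79), the phosphodiesterase gene Pde1a (-3.48), the contactin genes Cntn5 (-3.30) and Cntn1 (-2.95), Reln (-2.52), which encodes the secreted protein reelin, and Nrp2 (-1.83). Among genes of the glutamatergic postsynapse, the log2 fold change was -0.09 (SE 0.20) for Gria1 and 0.02 (SE 0.11) for Dlgap1. Of 15 tested in that list 3 were lower and none higher with all members, and of 17 tested channel genes 5 were lower and none higher. Over all genes tested 4.66% were higher and 6.76% lower with all members. Synaptic adhesion genes summed to 1721, 1982, 1530 and 1372 CPM in the members of null replicates 1 and 2 and WT replicates 1 and 2. In the Sst cells of the same libraries they summed to 1686, 2160, 1681 and 1296.5 CPM, both with no barcode set aside. Progenitor genes were higher in 5 of 10 tested with all members and in 9 of 10 with the barcodes set aside, Top2a by 0.71 (SE 0.11).

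**Figure D3:**
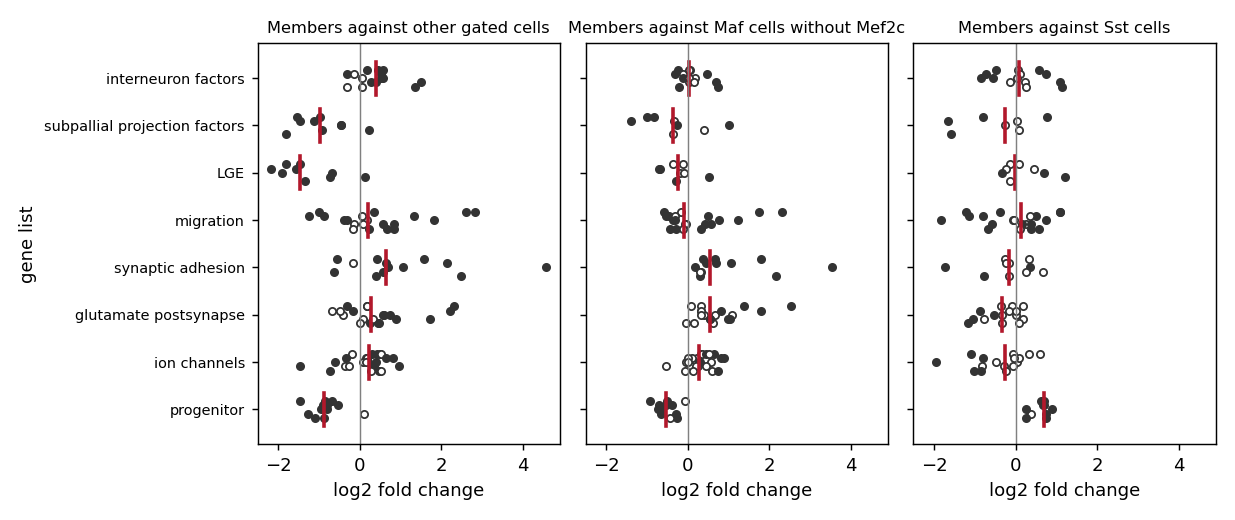
Log2 fold change of each gene in 8 lists between the Mef2c+ Maf+ cells and 3 comparison classes, with barcodes of other classes set aside. Each point is a gene, filled where its adjusted p was under 0.05, and the red bar is the list's median. Progenitor genes lie to the left of 0 against the other gated cells and to the right against the Sst cells.

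Null and WT embryos were then compared within the Mef2c+ Maf+ cells. The rule did not read genotype, but its limits are UMI counts, which a deeper cell meets at a lower CPM. With the barcodes set aside, Mef2c stood at 378 and 337 CPM in null members and 533 and 530 CPM in WT members. As the rule reads Mef2c, these levels carry no test, and their part in the differences below was not tested. The members were 5.33% (95% Clopper-Pearson interval 4.70 to 6.02) and 11.1% (9.91 to 12.3) of gated cells in the null libraries and 5.22% (4.47 to 6.05) and 3.33% (2.72 to 4.02) in the WT libraries. Each interval covers counting error only. The mean was 8.19% ± 4.05 (SD, n = 2) in null and 4.27% ± 1.34 (SD, n = 2) in WT, a difference of 3.92 percentage points. A two-sided exact permutation test over the libraries gave p = 0.333, the smallest that 2 against 2 allows. Both null libraries were above both WT libraries, null replicate 1 barely so, and without null replicate 2 the difference was 1.06 points. Null replicate 1 lay below WT replicate 1 without the highest doublet scores (5.07% and 5.16%), with a stricter gate of 3 Mef2c and 2 Maf UMIs (2.64% and 2.66%) and in cells without Mki67, Top2a and Hes5 UMIs (7.07% and 7.19%), each with an exact permutation p of 0.667. Thinned to 3000 UMIs, the shares were 2.01% and 3.66% in null and 2.92% and 1.48% in WT, the groups overlapped, and the exact permutation p was 0.667.

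**Figure D4:**
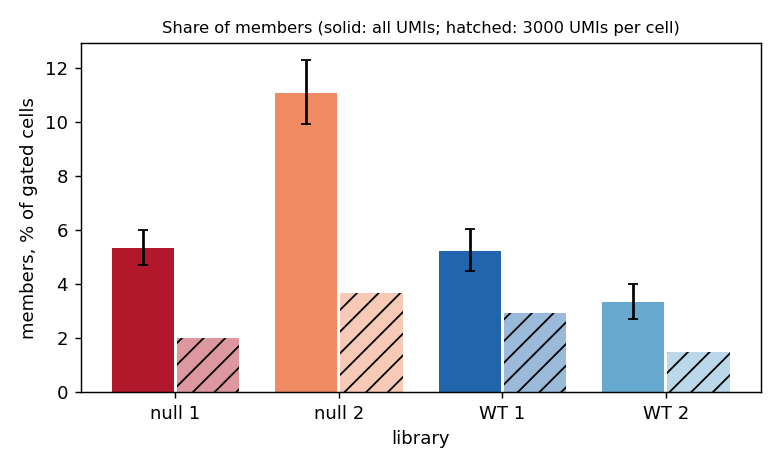
Mef2c+ Maf+ cells as a percent of gated cells in each library, with all UMIs (solid bars, with 95% Clopper-Pearson intervals) and after thinning each cell to 3000 UMIs (hatched bars). The solid bars range from 3.33% to 11.1%, and the hatched bars of null and WT overlap.

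With all members, 8 of 10121 genes were higher in null (0.079%) and 82 lower (0.81%) at an adjusted p of 0.05 (quasi-likelihood test of edgeR, Benjamini-Hochberg). All 10 genes of the microglial list were among the lower, with a median log2 fold change of -2.83. Fcrls, a microglial receptor, stood at 2.20 and 6.47 CPM in null libraries and 39.96 and 195 CPM in WT members (log2 fold change -4.66, SE 0.67, edgeR adjusted p = 0.0145). With the 22 barcodes set aside, 9 of 9808 genes were higher (0.0918%) and 14 lower (0.143%), and 1 microglial gene had enough counts to be tested. The 14 lower genes, named here after their values were seen, included Gm42418, a gene model that overlaps ribosomal RNA sequence, at 9007 and 15460 CPM in null libraries and 27040 and 25110 CPM in WT libraries (-1.20, SE 0.20, edgeR adjusted p = 0.012). Its part in the other differences between genotypes was not tested. Rps26, a ribosomal protein gene, was at 1115 and 1228 CPM in null libraries and 1824 and 1874 CPM in WT libraries (-0.77, SE 0.14, edgeR adjusted p = 0.020). One was the Y-linked Eif2s3y (-1.31, SE 0.25, edgeR adjusted p = 0.024), and another Gm17750, annotated beside Mef2c on chromosome 13, at 221 and 253 CPM in null libraries and 418 and 366 CPM in WT libraries (-0.84, SE 0.15, edgeR adjusted p = 0.020). The 2 listed neighbours of Mef2c, Gm17750 among them, had a lower sum in null outside the members too. With no barcode set aside, the other gated cells summed to 227 CPM (null replicate 1), 238 (null replicate 2), 367 (WT replicate 1) and 391 (WT replicate 2). For this sum, which does not separate the genes, the lower null level was not particular to the members.

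The genes that rose in null members included 4 transcription factors, an imprinted gene and a cyclin. Ebf1, a helix-loop-helix factor of striatal neurons, stood at 80.3 and 66.3 CPM in null libraries and 1.85 and 11.4 CPM in WT libraries with the barcodes set aside (log2 fold change 3.63, SE 0.40, edgeR adjusted p = 3.7e-05). With all members its log2 fold change was 2.67 (SE 0.51, edgeR adjusted p = 0.042), and this moved to 1.57 without WT replicate 1 and to 5.24 without WT replicate 2. Zfp503, a zinc finger factor of the LGE, stood at 17.9 and 23.2 CPM against 4.63 and 3.27 CPM (2.21, SE 0.46, edgeR adjusted p = 0.041). Peg10, an imprinted gene of retroviral origin, stood at 32.3 and 59.4 CPM against 11.1 and 8.18 CPM (2.11, SE 0.37, edgeR adjusted p = 0.019). Nfix, a nuclear factor I gene, stood at 64.6 and 77.9 CPM against 30.6 and 4.91 CPM (1.68, SE 0.33, edgeR adjusted p = 0.032). With all members the Nfix value was 1.56, and 2.46 without WT replicate 1. Prox1, a homeobox factor of the caudal ganglionic eminence, stood at 65.5 and 98.6 CPM against 27.8 and 32.7 CPM (1.37, SE 0.25, edgeR adjusted p = 0.020). In each of these genes, both null libraries were above both WT libraries. Ccnd2, a D-type cyclin, also rose, at 377 and 408 CPM against 165 and 249 CPM (0.85, SE 0.17, edgeR adjusted p = 0.036). Over all members, the share with a Mki67 or Top2a UMI was higher in both null libraries, as given above. At 5 or more such UMIs null replicate 1 (13.0%) lay below WT replicate 2 (14.6%). In the other gated cells the share with at least 1 was 62.2% and 66.5% in null and 51.7% and 51.8% in WT libraries. The part of dividing cells in the Ccnd2 difference was not tested. Xist and its antisense partner Tsix, which mark female cells, were the remaining named genes that rose.

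The Ebf1 difference lay in few cells. It had at least 1 UMI in 25 and 29 null members and in 2 and 10 WT members, and at least 5 UMIs in 7, 8, 0 and 1. The 15 null barcodes with 5 or more held 420 of the 473 Ebf1 UMIs of null members. Among these 15, 7 were among the highest doublet scores and 2 were among the barcodes set aside, and their median depths, 12393 and 36234 UMIs, were above those of the members. Over all null members the highest doublet scores made up 11.0% and 8.17%, and over all WT members 5.45% and 6.80%. In the other gated cells they made up 6.11% and 3.33% in null and 4.34% and 3.41% in WT libraries. Prox1 was more widely spread, with a UMI in 209 of 552 null members, and Nfix and Peg10 had one in 124 and 112. Of the null members with 5 or more UMIs of Prox1, Nfix and Peg10, 12 of 30, 8 of 20 and 7 of 13 were likewise among the highest doublet scores. Without the highest doublet scores Ebf1 had a log2 fold change of 1.69 with an edgeR adjusted p of 0.207, in male cells 1.42 with 0.591, and by DESeq2 2.48 with 0.9999. Zfp503 and Peg10 kept log2 fold changes of 1.94 and 1.88 without the highest doublet scores and 2.92 and 1.55 in male cells, but missed the threshold there (edgeR adjusted p = 0.107 and 0.0966, then 0.096 and 0.109) and without null replicate 2 (0.209 and 0.058). Nfix, at 1.44 and 1.25 in the same subsets, missed it in both (0.083 and 0.235), while Prox1 passed in both (0.040 and 0.045) and by DESeq2 (0.023). In cells without Mki67, Top2a and Hes5 UMIs, Prox1 (1.36, edgeR adjusted p = 0.0868) and Nfix (2.19, 0.100) missed the threshold, Peg10 passed (2.43, 0.013), and Ebf1 and Zfp503 had too few counts to be tested. Ccnd2 passed with the barcodes set aside but not with all members (log2 fold change 0.93, edgeR adjusted p = 0.0762), without the highest doublet scores (0.75, 0.172), in male cells (0.86, 0.097), without WT replicate 1 (0.64, 0.2005) or in cells without Mki67, Top2a and Hes5 UMIs (0.67, 0.148).

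For the genes below that described the Mef2c+ Maf+ cells, no difference between genotypes passed the threshold with the barcodes set aside. With 2 libraries per genotype this does not show that their levels were alike. Log2 fold changes (null relative to WT) were 0.05 (SE 0.14) for Zeb2, -0.09 (SE 0.16) for Erbb4, -0.03 (SE 0.16) for Npy and 0.24 (SE 0.16) for Lhx6, with edgeR adjusted p-values from 0.592 to 0.968. Epha5 (-0.38, SE 0.15), Gria1 (-0.48, SE 0.20) and Cxcr4 (-0.72, SE 0.26) were lower in both null libraries than in both WT libraries, and their edgeR adjusted p-values of 0.336, 0.370 and 0.272 missed the threshold. Among all listed genes, those past the threshold were Nfix, Ebf1, Zfp503, Prox1, Xist, Eif2s3y and Gm17750. The list medians were 0.09 for interneuron factors, 0.14 for migration genes, -0.11 for glutamate receptor and scaffold genes and 0.31 for progenitor genes, against 0.01 for all genes tested. Marker genes of the LGE and of the caudal ganglionic eminence (CGE) had medians of 0.93 and 0.51, with 2 of 8 tested (Ebf1 and Zfp503) and 1 of 6 tested (Prox1) higher and none lower, beside 0.0918% of all genes higher. Sums over a list were taken with all members. In WT replicate 2 the barcodes otherwise set aside held 19.98% of the members' UMIs. Over all 10 LGE genes the members stood at 1287 and 1403 CPM in null libraries and 867 and 865 CPM in WT libraries. Over the 7 CGE genes they stood at 401 and 582 CPM against 337 and 306 CPM. In the other gated cells, likewise with no barcode set aside, the LGE sum was 1710 and 2034 CPM in null libraries against 1597 and 1303 CPM in WT libraries. The CGE sum there was 426 and 499 CPM against 313 and 361 CPM. Cells of the LGE and CGE lineages among the members were not counted, and their part in the changes of Ebf1, Zfp503 and Prox1 was not tested.

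Whether the change from WT to null in the Mef2c+ Maf+ cells differed from that in the other gated cells was tested with the class by genotype term of the edgeR model. With all members, 9 of 14327 genes had a positive difference (0.0628%) and 35 a negative one (0.244%). With the barcodes set aside, 6 of 13841 were positive (0.0433%) and 1 negative (0.00722%). The 6 were Ebf1 (difference of log2 fold changes 3.52, SE 0.35), Peg10 (1.71, SE 0.31), Nfix (1.35, SE 0.26), Mrps28 (1.22, SE 0.27), Prox1 (0.99, SE 0.20) and Ccnd2 (0.55, SE 0.11), with edgeR adjusted p-values from 1.2e-10 to 0.041. Mrps28, a mitochondrial ribosomal protein gene, stood in the other gated cells at 35.4 and 29.6 CPM in null libraries against 48.0 and 44.7 CPM in WT libraries, and in the members at a mean of 29.6 ± 8.27 CPM against 18.3 ± 0.37 CPM (SD, n = 2 libraries each), where its own change did not pass (0.54, edgeR adjusted p = 0.543). In the other gated cells Ebf1 stood at 224 and 272 CPM in null libraries and 242 and 151 CPM in WT libraries. With every cell thinned to 3000 UMIs no gene passed this test, and 397 of 11339 (3.50%) had an unadjusted edgeR p under 0.05. The rule was applied again to the thinned counts, so this fit held 65 and 62 null and 66 and 35 WT members. By DESeq2 without thinning 15 passed. Thinned, the differences were -0.68 for Ebf1, 1.90 for Peg10, 0.75 for Nfix, 1.23 for Mrps28, 0.16 for Prox1 and 0.58 for Ccnd2. In male cells 6 genes passed, all of them negative. The negative gene with the barcodes set aside was Epha5 (-0.40, SE 0.07, edgeR adjusted p = 0.0048). In the other gated cells it stood at 335 and 361 CPM in null libraries and 348 and 274 CPM in WT libraries. Epha5 came with the cell class and was lower in members with the lowest Mef2c and Maf counts. Mef2c itself was lower in null members, as given above, and its part in the Epha5 difference was not tested.

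**Figure D5:**
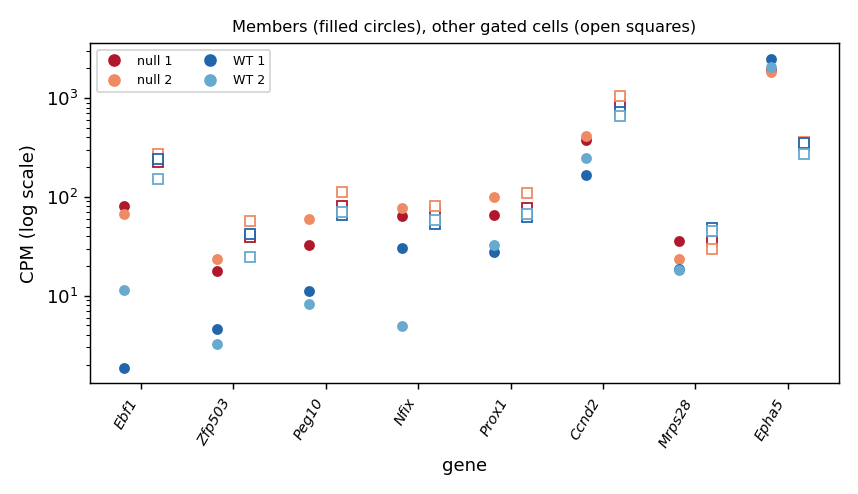
CPM on a log scale in each library for 8 genes in the Mef2c+ Maf+ cells (filled circles) and the other gated cells (open squares), with barcodes of other classes set aside. For Ebf1 the members spread from 1.85 CPM in WT replicate 1 to 80.3 CPM in null replicate 1, and the other gated cells from 151 to 272 CPM.

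The Mef2c+ Maf+ cells also varied among themselves. Variance over mean of counts scaled to each library's median depth, averaged over the libraries, was highest for the lipid carrier Apoe (56.3), the noncoding RNAs Meg3 (34.8) and Malat1 (31.8), C1qb (25.6), Gm42418, Tyrobp, Tmsb4x, C1qa, Adarb2 and C1qc. With the barcodes set aside, Meg3 (34.4), Malat1 (29.0), Gm42418 (21.7) and Adarb2 (17.7) led, followed by Hmgb2, Fabp7 and the cell cycle genes Top2a (12.3), Hist1h1b, Cenpf and Ube2c. Adarb2, a mark of interneurons of the caudal ganglionic eminence, reached 53.8 in null replicate 2 and 3.92 to 8.33 in the other libraries. Single cells could carry much of a gene: one member held 218 of the 660 UMIs of Fabp7, a radial glia fatty acid carrier, in null replicate 1. Epha5 varied less on this scale, at a mean of 9.46, and Npy stood at 6.85.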

How the data were processed

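Single-cell RNA of pooled E14.5 MGE was sequenced with 10X chemistry. The authors aligned reads to GRCm38 with Cell Ranger (5.0.1 per the submitters' notes, 4 in the file headers) and deposited raw UMI counts of 32285 genes by 6794880 barcodes for each of 4 libraries. Here barcodes were kept by the stated rule with no doublet removal; Scrublet scores called at most 0.0665% of cells and so served only as a ranking. For each library and class the counts were added up, and edgeR's quasi-likelihood test (TMM, filterByExpr, Benjamini-Hochberg) was run on all genes, with the library as block between classes and without it between genotypes. Named genes were members of lists of known pathways, plus, per direction, up to 10 (members against other gated cells) or 5 (other comparisons) with the largest fold past an adjusted p of 0.05, a mean of at least 20 CPM and one direction in all libraries or separate genotypes. Cells and lists were chosen with earlier results of these data known. Gene positions are from GENCODE M21 and promoters from RefSeq. Alternatives were DESeq2, other size factors, no filter, thinning, doublet scores, a stricter gate (3 Mef2c and 2 Maf UMIs), male cells and each library left out. Fits were tested on simulated data. Versions were R 4.3.3, edgeR 4.0.16, DESeq2 1.42.0, Python 3.11.15 and scanpy 1.11.5. Some results are not reported here.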

Additional observations from a re-analysis of the deposited data

Results flagged for a closer look

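The difference in null over WT between the Mef2c+ Maf+ cells and the other gated cells passed an adjusted p of 0.05 (edgeR, class by genotype term) with all members for 44 genes. The 10 given here had the largest folds under the naming rule, 5 per direction. Prox1 also passed (1.02, edgeR adjusted p = 0.0226). On the log2 scale the difference was 2.54 for Ebf1, 1.99 for Zfp503, 1.52 for Peg10, 1.26 for Nfix and 1.16 for Mrps28, each more positive in the Mef2c+ Maf+ cells. It was -3.21 for C1qc, -3.10 for Fcer1g, -3.08 for Cx3cr1, -2.95 for C1qb and -2.63 for Lgmn, all genes of microglia. The 22 members with microglial, endothelial or erythroid genes held 4927 of the 4990 microglial-list UMIs. With those barcodes set aside Ebf1, Peg10, Nfix and Mrps28 still passed. Of the 10 genes, 9 missed the threshold by DESeq2, 9 in male cells and 7 without the highest doublet scores. For 5 of them the differences by DESeq2 were 2.96 for Ebf1, 2.01 for Zfp503, 1.47 for Peg10, 1.32 for Nfix and 1.16 for Mrps28, in male cells 1.41, 2.56, 1.16, 0.95 and 1.48, and without the highest doublet scores 1.53, 1.62, 1.47, 1.17 and 0.97. Leaving out WT replicate 1 gave 1.05 for Ebf1, which then missed the threshold (edgeR adjusted p = 0.080), and 2.32 for Nfix. Without WT replicate 2 the Ebf1 difference was 5.42, and that of Nfix 0.83 (edgeR adjusted p = 0.256). With every cell thinned to 3000 UMIs the difference was -0.68 for Ebf1, 0.89 for Zfp503, 1.90 for Peg10, 0.75 for Nfix, 1.23 for Mrps28, -2.33 for C1qb and 0.01 for Lgmn, and none passed. That fit held only the fewer members that met the rule on thinned counts.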

How the results depend on the processing

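Genes past an adjusted p of 0.05 between members and other gated cells numbered 3264, and 764 with every cell thinned to 3000 UMIs, 811 in cells without Mki67, Top2a and Hes5 UMIs, 1675 without the library block and 2009 to 3311 when 1 library was left out (2009 without null replicate 2). Against Maf cells without Mef2c they numbered 1214, and 2075 without a filter, 729 by DESeq2, 278 thinned, 267 in cells without Mki67, Top2a and Hes5, 362 without the library block and 698 to 1433 with a library out (794 without null replicate 1, 698 without null replicate 2, 713 without WT replicate 1). Against Sst cells they numbered 963, and 345 by DESeq2, 382 thinned, 132 in male cells, 302 without the library block and 536 to 1006 with a library out (536 without null replicate 1, 564 without WT replicate 1).

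Between genotypes 90 genes passed, and 350 without a filter, 139 by DESeq2, 2 thinned, 59 with the stricter gate, 38 in male cells, 23 without microglial, endothelial and erythroid barcodes and 159 in cells without Mki67, Top2a and Hes5. With a library out they numbered 130 to 378 (378 without null replicate 1, 170 without null replicate 2, 354 without WT replicate 1). A lone library was then assumed to vary like the other genotype. For the difference between classes 44 passed, and 113 without a filter, 15 by DESeq2, 0 thinned by edgeR (397 at an unadjusted p under 0.05), 6 in male cells, 7 without the 3 kinds of barcode, 71 in cells without Mki67, Top2a and Hes5 and 24 to 240 with a library out (71 without null replicate 2, 240 without WT replicate 1, 24 without WT replicate 2). In the thinned fits the rule was applied again to the thinned counts, which left fewer members and fewer genes tested. The cause of the other shifts was not tested. The 2 cell subsets by markers were chosen after seeing the data.

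Signs turned for Hba-x against the other gated cells without the 3 kinds of barcode (0.54), Hbb-y against Maf cells without Mef2c when thinned (0.49), and for Ebf1 (-0.68) and Lgmn (0.01) in the difference between classes when thinned. Library totals in place of TMM shifted the median of all genes between genotypes to 0.14 on the log2 scale and gave 20 higher and 57 lower. The difference in member share was 3.92 points, 0.628 thinned and 1.06 to 6.79 with a library out. No paired analysis was possible because the labels give the libraries no replicate numbers, and the numbers used here only name them. With 2 libraries per genotype, the exact permutation test cannot go below p = 0.333.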
